A study of Mus musculus with 48 samples.

Results

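The core circadian clock of the mouse liver was described here with 10 genes: the activators Arntl, Clock and Npas2, the repressors Per1, Per2, Per3 and Cry1, the nuclear receptors Nr1d1 and Nr1d2, and the clock output gene Dbp. A gene was a member when it was named as such by a non-control probe of the array, which gave 23 probes of the 56605 on the array. Of these, 20 probes passed the filter on low signal, among 33323 probes tested in all. They covered 9 of the 10 members, because the single Npas2 probe was not well above background on any of the 48 arrays and was not tested. Npas2, a paralog of Clock that can pair with Arntl, therefore has only a bound here and is left out of every count below.

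Almost every cell keeps a daily rhythm through a loop of transcription factors. The proteins of Arntl and Clock (or Npas2) bind E-box sequences as a pair and activate the Per and Cry genes, Nr1d1, Nr1d2 and Dbp. The Per and Cry proteins then repress that pair, and the Nr1d1 and Nr1d2 proteins repress Arntl, so that Arntl transcripts peak at the opposite part of the day from those of Nr1d1 and Dbp. In liver, Dbp encodes a transcription factor that acts through D-box sequences, and clock output reaches genes of lipid, bile acid, glycogen and drug metabolism.

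The livers came from male C57Bl6J mice of 3 genotypes on 2 diets, with 8 mice in each of 6 groups and 1 array per mouse. WT mice carried no Pparα deletion and were bought from a breeder. Pparα hep-/- mice (PPARaLKO in the labels) carried 2 floxed Pparα alleles and an albumin-Cre transgene, which acts in hepatocytes and leaves Pparα in the other cells. Pparα-/- mice (PPARaKO in the labels) lacked Pparα in the whole body. Both mutant lines were bred in the study's own facility, so supplier and genotype cannot be told apart in a comparison with WT. Each genotype received a control diet (CTRL) or a high fat diet (HFD) with 60% fat, and all mice were kept at thermoneutrality under a cycle of light and dark. Per the labels the mice were 20 weeks old and the diets lasted 12 weeks, while the study's text gives a shorter time on the diet. The time of day at which each mouse was killed is not given in the sources used here. Most clock genes change with that time, and it cannot be told apart from genotype or diet if it differed between groups.

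Short stretches of promoter are shown for the members whose window, from 250 bases before to 50 bases after the gene start, held one of the letters through which clock factors are known to act. They come from RefSeq (build GRCm38.p6), run 5′ to 3′ on the gene's strand, and mark each match in capitals. The motifs, searched on both strands, were the E-box CACGTG, bound by the Arntl and Clock pair, its variant CACGTT, which reads AACGTG on the other strand, the D-box TTANGTAA of Dbp, and TAGGTCA, bound by Nr1d1, Nr1d2 and the Ror receptors.
Per1, chr11:69098759-69098818, plus strand: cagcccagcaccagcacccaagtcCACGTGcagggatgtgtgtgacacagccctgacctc
Cry1, chr10:85185085-85185144, minus strand: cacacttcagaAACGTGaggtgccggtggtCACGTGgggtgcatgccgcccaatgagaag
Nr1d1, chr11:98775378-98775437, minus strand: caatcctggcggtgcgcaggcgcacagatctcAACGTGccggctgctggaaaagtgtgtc
Per3, chr4:151044806-151044875, minus strand: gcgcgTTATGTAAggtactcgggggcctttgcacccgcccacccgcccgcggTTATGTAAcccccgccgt
Arntl, chr7:113207526-113207555, plus strand: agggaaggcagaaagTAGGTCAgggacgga
Of 32851 promoter windows in all, 7.15% held CACGTG, 4.68% CACGTT, 2.32% TTANGTAA and 2.61% TAGGTCA. The 13 windows of the members (several genes have more than 1 start, and Per2 has none in the table) held CACGTG in 2, CACGTT in 2, TTANGTAA in 1 and TAGGTCA in 1. No match in the windows of Dbp, Clock, Npas2 and Nr1d2 says only that these letters are not in those windows.

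Signals are given as quantile-normalized log2 intensities, in which 1 unit is a doubling, and the lowest, median and highest of the 8 mice are given for a group. Each member is described by its main probe, the tested probe with the highest mean signal. On build mm9, which the array files use, the main probes of Arntl (chr7:120456978-120457037) and Dbp (chr7:52965461-52965520) lie on the plus strand of the same chromosome, that of Per1 lies at chr11:68923364-68923423 on the plus strand, and that of Nr1d1 spans chr11:98630526-98631028 on the minus strand. Their place in exons is not given in the sources used here. A probe's level cannot be set against that of another probe, so genes are compared only by their differences between groups. In bulk liver RNA, fewer cells of a type and less RNA per cell cannot be told apart. The hepatocyte markers Alb, Apoa1, Ttr and Tat were high on all arrays, with a mean log2 signal of 16.77 to 17.31. The arrays had 25600 to 35543 probes well above background, and their weights in the fit ran from 0.189 to 2.53. Both tested probes of the targeted gene Ppara were well above background on all 48 arrays. Its main probe was lower than in WT mice in each mutant group (log2 difference -0.42 and -0.65 on CTRL, -0.85 and -1.08 on HFD, for Pparα hep-/- and Pparα-/-). The other Ppara probe differed by -0.10 (adjusted p = 0.454) between Pparα hep-/- and WT mice on CTRL. Whether either probe lies in the deleted part of the gene is not given in the sources used here, so neither checks the deletion.

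One liver stood apart from the rest of its group. Replicate 3 of the Pparα-/- CTRL mice had the highest Arntl signal of all 48 mice (10.21) and the lowest Dbp signal (11.69). It also held the lowest value of its group for Nr1d1, Nr1d2, Per1, Per2 and Per3, and the highest for Clock and Cry1. Its array weight was 0.419, and the comparisons with its group are also given without it.

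Arntl encodes the partner shared by Clock and Npas2. Its signal and that of Dbp had the widest ranges of any member in a single group, the Pparα-/- CTRL mice, but not in every group. In WT mice, Arntl lay at 5.99, 6.36 and 7.05 on CTRL and at 6.26, 7.39 and 7.86 on HFD. In Pparα hep-/- mice it lay at 7.04, 8.04 and 8.58 on CTRL and at 6.86, 8.25 and 8.83 on HFD. In Pparα-/- mice it lay at 6.17, 6.65 and 10.21 on CTRL and at 6.26, 6.72 and 9.08 on HFD. The Pparα hep-/- mice were thus high on both diets, and their CTRL group met the WT CTRL group only at its edge, at 7.04 against 7.05. The Pparα-/- medians lay near that of WT CTRL, with 1 high mouse on CTRL and 2 on HFD (9.08 and 8.15). Clock, its partner in the activating pair, moved within narrower limits. Its medians were 9.57 on CTRL and 9.82 on HFD in WT mice, 9.76 and 9.85 in Pparα hep-/- mice, and 9.39 and 9.20 in Pparα-/- mice. The Pparα-/- HFD mice, from 9.03 to 9.77, overlapped the WT HFD mice, from 9.44 to 10.08.

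Nr1d1 and Nr1d2 encode Rev-erb α and Rev-erb β, the repressors of Arntl. In WT mice, Nr1d1 lay at 8.17, 9.50 and 10.20 on CTRL and at 7.80, 8.73 and 9.15 on HFD. The Pparα hep-/- mice lay at 6.93, 7.82 and 8.50 on CTRL and at 6.75, 7.31 and 8.71 on HFD. The Pparα-/- mice lay at 6.97, 8.51 and 9.25 on CTRL and at 7.13, 7.97 and 9.01 on HFD. Nr1d1 was thus lowest in Pparα hep-/- mice, the genotype in which Arntl was highest, and all groups overlapped. By its main probe Nr1d2 also had its lowest medians in Pparα hep-/- mice, whereas on the probe A_55_P2148534 they were lowest in Pparα-/- mice. The medians of the main probe were 11.06 on CTRL and 10.83 on HFD in WT mice, 10.65 and 10.32 in Pparα hep-/- mice, and 10.80 and 10.75 in Pparα-/- mice.

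The period genes encode repressors of the clock's negative limb. Per1 lay at 11.46, 12.33 and 12.73 in WT mice on CTRL and at 11.89, 12.21 and 12.49 on HFD. In Pparα-/- mice it lay at 10.71, 11.76 and 12.28 on CTRL and at 10.98, 11.58 and 11.83 on HFD. The medians of Per1 in Pparα hep-/- mice were 12.29 on CTRL and 12.13 on HFD. All 8 Pparα-/- HFD mice lay below all 8 WT HFD mice for Per1, at 11.83 against 11.89 where the groups came closest. The medians of Per2 were 11.38 and 11.26 in WT mice, 11.25 and 11.19 in Pparα hep-/- mice, and 11.64 and 11.80 in Pparα-/- mice, on CTRL and HFD. Per2 was therefore higher in the median Pparα-/- mouse by this probe, and its groups overlapped. On the second Per2 probe, A_52_P536869, the HFD medians were 6.17 in WT and 6.02 in Pparα-/- mice. Per3 had medians between 9.36 and 10.02, and Cry1, a repressor that acts with the Per proteins, had medians between 6.47 and 6.81.

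Dbp, a direct target of the Arntl and Clock pair, lay at 14.83, 15.17 and 15.56 in WT mice on CTRL and at 14.18, 14.74 and 15.74 on HFD. In Pparα hep-/- mice it lay at 13.74, 14.58 and 15.16 on CTRL and at 12.96, 13.79 and 15.03 on HFD. In Pparα-/- mice it lay at 11.69, 15.31 and 15.69 on CTRL and at 13.15, 15.14 and 15.78 on HFD. Dbp was low in the genotype in which Arntl was high, and every group overlapped every other. Mice of a single group were far apart for both genes. In the Pparα-/- CTRL group, the highest and the lowest mouse differed by 4.05 on the log2 scale for Arntl (16.5-fold) and by 4.0 for Dbp (16-fold), and both distances rest on replicate 3. Of the 45 pairs of neighbouring groups in the members' orders of group means, 1 differed by more than the larger SD of the pair, Nr1d2 in WT HFD against WT CTRL mice. Neighbours in such an order are the closest groups by construction, so this count does not show how far groups differ. From the lowest to the highest group, the means of Arntl spanned 1.57 and those of Nr1d1 1.62.

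**Figure D1:**
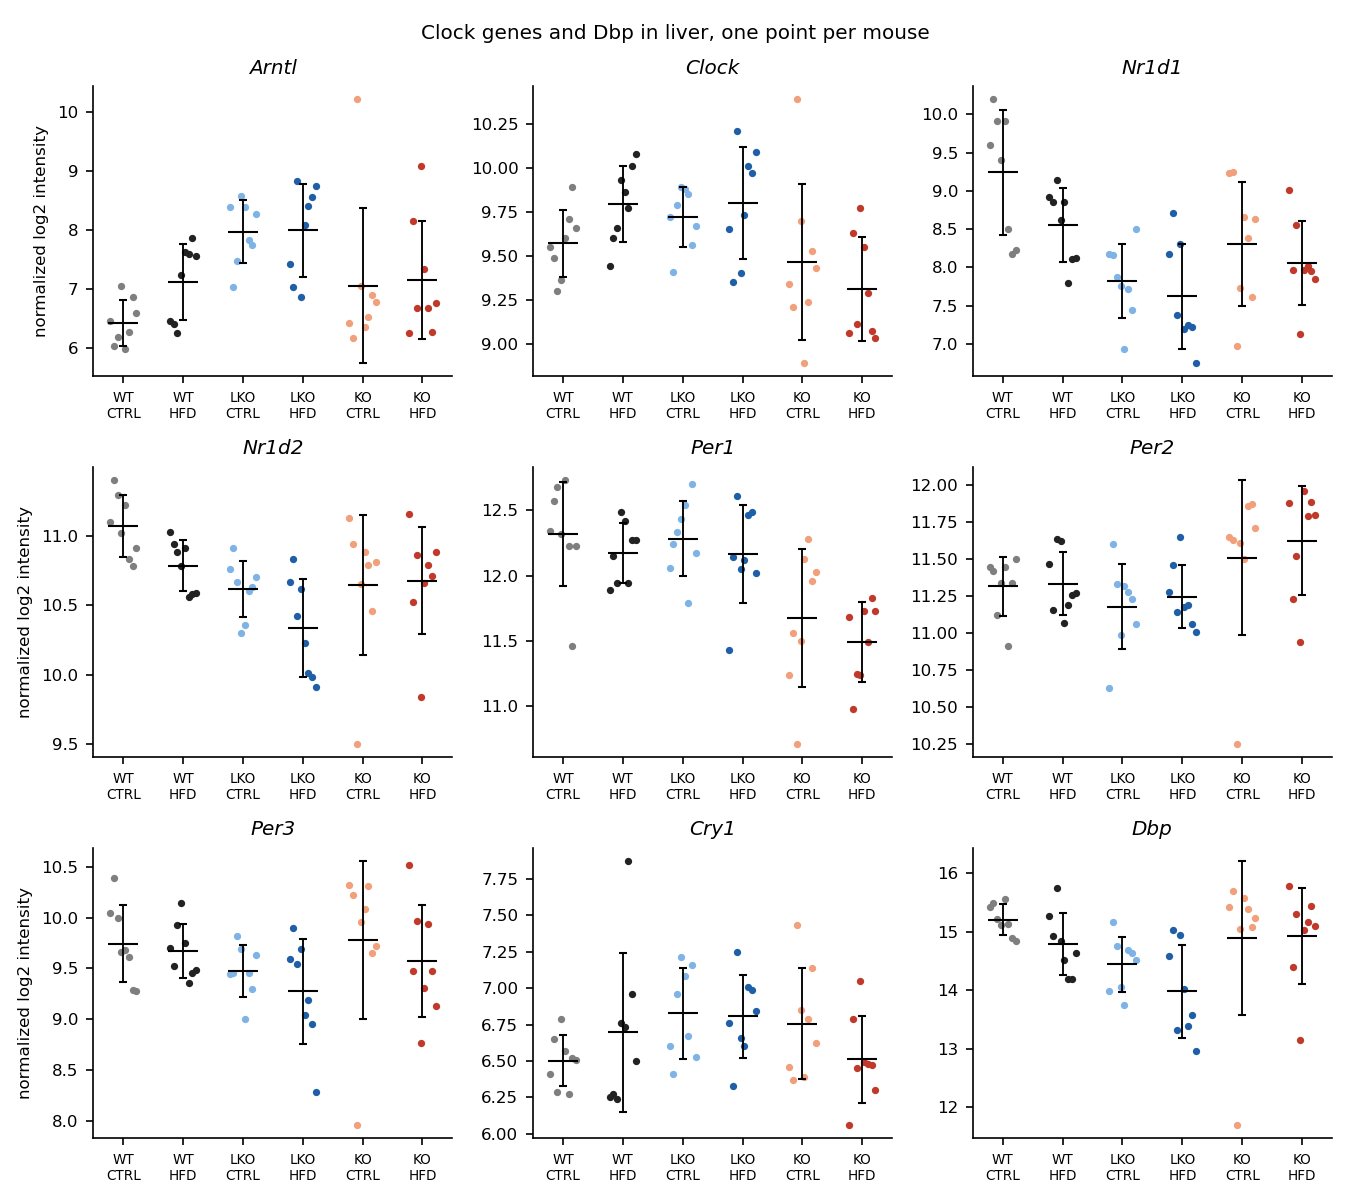
Normalized log2 signal (vertical axis) of each tested member's main probe in the 6 groups of 8 mice, with 1 point per mouse and the group mean ± SD. Groups overlap for nearly every member, Arntl is high and Nr1d1 and Dbp are low in the Pparα hep-/- mice (LKO), and replicate 3 of the Pparα-/- CTRL mice (KO_CTRL) lies far from its group at 10.21 for Arntl and 11.69 for Dbp.

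The diet comparison asks what the HFD changed within a genotype. By its main probe, a single member passed the test in any genotype, Nr1d1 in WT mice, where 1 of 9 members was called against 18.8% of all probes. Nr1d1 fell on HFD by 0.94 ± 0.31 on the log2 scale (SE, 1.92-fold, limma adjusted p = 0.0287), and all 8 HFD mice lay below the CTRL mean. The difference was -1.51 within wash batch 1 and -0.45 within wash batch 2, the 2 washing runs that the labels name. It was no longer called without any 1 of WT CTRL replicates 1, 2, 3 or 5 or WT HFD replicates 7 or 8, where the adjusted p rose to as much as 0.12 and the difference lay between -1.15 and -0.75 over all omissions. The call was also lost without array weights, without the wash batch term, with a replicate block, without the filter on dim probes and within wash batch 2 alone. The other members did not pass in WT mice. Among them, Arntl differed by 0.88 ± 0.37 (adjusted p = 0.0915), Clock by 0.36 ± 0.14 (adjusted p = 0.0676), Nr1d2 by -0.38 and Dbp by -0.54. The remaining differences were -0.13 for Per1, -0.03 for Per2, -0.14 for Per3 and 0.15 for Cry1. Of the other Clock probes, A_52_P334670 was called at 0.41 (adjusted p = 0.0379) and A_52_P279391 was not, at 0.26 (adjusted p = 0.118). The adjusted p-values here and below are over all 33323 probes of a comparison, and the differences come from the weighted fit with the wash batch as a term, so they are not simple differences of the medians above.

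In Pparα hep-/- mice the HFD called 0 of 9 members in limma, against 20.2% of all probes, and 1 of 9 had an unadjusted p under 0.05. The differences were 0.08 for Arntl, 0.10 for Clock, -0.28 for Nr1d1, -0.30 for Nr1d2, -0.06 for Per1, 0.03 for Per2, -0.27 for Per3, -0.06 for Cry1 and -0.57 for Dbp. Of the other Per3 probes, A_55_P2752088 was called at -0.40 (adjusted p = 0.0494) and A_66_P135046 was not, at -0.22 (adjusted p = 0.233). On HFD 2 of 4 macrophage and 1 of 4 stellate cell markers were higher in these mice. In Pparα-/- mice it also called 0 of 9, against 24.8% of all probes, and none had an unadjusted p under 0.05. There the differences were 0.22 for Arntl, -0.13 for Clock, -0.28 for Nr1d1, -0.02 for Nr1d2, -0.27 for Per1, 0.02 for Per2, -0.38 for Per3, -0.24 for Cry1 and -0.14 for Dbp. Without replicate 3 of the Pparα-/- CTRL mice 0 members were again called, and the differences lay between -0.48 (Per3, adjusted p = 0.0564) and 0.39 (Arntl, adjusted p = 0.368). In these mice 3 of 4 macrophage, 2 of 4 neutrophil and 4 of 4 stellate cell markers were higher on HFD, 1 of 3 T and B cell markers was lower, and 1 of 4 hepatocyte markers was called in each direction. In WT mice no marker of these lists was called. A difference of the size of the SE of Arntl (0.31 to 0.37) or Dbp (0.28 to 0.33) was not detectable with 8 mice per group.

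The response to the diet was then compared between genotypes. In limma, 0 of 9 members differed in any of the 3 comparisons, against 10.4% of all probes for Pparα hep-/- against WT mice, 14.3% for Pparα-/- against WT mice and 3.42% for Pparα-/- against Pparα hep-/- mice. Nr1d1, the member called in WT mice, therefore had no shown difference in response: 0.66 ± 0.41 (adjusted p = 0.305) for Pparα hep-/- minus WT and 0.66 ± 0.42 (adjusted p = 0.299) for Pparα-/- minus WT. Within wash batches 1 and 2 these differences were far apart, at 1.43 and 0.00 for Pparα hep-/- and at 1.68 and -0.27 for Pparα-/- mice. Unadjusted p-values under 0.05 were found for 0, 2 and 0 members in the 3 comparisons. The 2 were Clock, with -0.48 ± 0.19 (adjusted p = 0.0729), and Cry1, with -0.39 ± 0.19 (adjusted p = 0.161), in Pparα-/- against WT mice. Arntl differed by -0.80 and -0.67 against WT, Dbp by -0.02 and 0.41, Nr1d2 by 0.07 and 0.36, Per1 by 0.08 and -0.13, Per2 by 0.06 and 0.06, and Per3 by -0.13 and -0.24, for Pparα hep-/- and Pparα-/- mice in this order. For Pparα hep-/- against WT mice, the differences of Clock and Cry1 were -0.25 and -0.21. Between the mutants, the 9 differences lay between -0.23 (Clock) and 0.43 (Dbp). Without replicate 3 of the Pparα-/- CTRL mice, 0 members differed in response between Pparα-/- mice and either other genotype, with Clock at -0.43 (adjusted p = 0.0939) against WT.

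Deletion of Pparα in hepatocytes was compared with WT on each diet. On CTRL, Arntl was higher and Nr1d1 and Nr1d2 were lower in Pparα hep-/- mice, which made 3 of 9 members called against 24.7% of all probes. Arntl rose by 1.58 ± 0.36 (2.99-fold, adjusted p = 0.000907), with 8 of 8 Pparα hep-/- mice above the WT mean. Nr1d1 fell by 1.63 ± 0.30 (3.1-fold, adjusted p = 7.66e-05) and Nr1d2 by 0.54 ± 0.15 (1.45-fold, adjusted p = 0.00613), both with 8 of 8 mice below the WT mean. The repressors and their target thus differed in opposite directions. Within wash batches 1 and 2, the differences were 1.76 and 1.30 for Arntl, -2.15 and -1.11 for Nr1d1, and -0.73 and -0.34 for Nr1d2. All 3 calls held whichever single mouse was left out. With the fewer mice of a single wash batch, Arntl was not called in the first, Nr1d1 not in the second and Nr1d2 in neither. Dbp (-0.82 ± 0.32, adjusted p = 0.0565) and Cry1 (0.36 ± 0.14, adjusted p = 0.0517) lay just outside the threshold. Clock differed by 0.21, Per1 by -0.09, Per2 by -0.17 and Per3 by -0.31. The second Dbp probe, A_51_P180492, was called (-1.09, adjusted p = 0.0184). Of the other Arntl probes, A_55_P2735445 was called at 0.90 and A_66_P127371 was not, at 0.57 (adjusted p = 0.0636). These probes were well above background on 1 and 0 of the 8 WT CTRL arrays. Their differences are therefore taken against background signal, and their size is uncertain. In this comparison 1 of 4 neutrophil and 1 of 4 stellate cell markers were higher and 1 of 4 hepatocyte markers was lower, and their part in these differences was not tested.

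On HFD, Nr1d1, Nr1d2 and Dbp were lower in Pparα hep-/- than in WT mice, again 3 of 9 members, against 26.7% of all probes. Without array weights, and within wash batch 1 alone, 0 of 9 were called. Nr1d1 fell by 0.97 ± 0.28 (1.96-fold, adjusted p = 0.00706), Nr1d2 by 0.46 ± 0.14 (1.38-fold, adjusted p = 0.00882) and Dbp by 0.85 ± 0.29 (1.8-fold, adjusted p = 0.0279). The mice below the WT mean numbered 7, 7 and 6 of 8. Without replicate 6 of the Pparα hep-/- HFD mice none of the 3 was called, with adjusted p-values of 0.0513 for Nr1d1, 0.0962 for Nr1d2 and 0.199 for Dbp, the highest of any omission, and differences of -0.79, -0.33 and -0.56. Dbp was also lost without Pparα hep-/- HFD replicates 5, 7 or 8 or WT HFD replicates 3 or 4. The differences within wash batches 1 and 2 were -0.73 and -1.11 for Nr1d1, -0.35 and -0.54 for Nr1d2, and -0.57 and -1.03 for Dbp. Arntl differed by 0.78 ± 0.33 (adjusted p = 0.071). The values of the rest were -0.04 for Clock, -0.02 for Per1, -0.10 for Per2, -0.44 for Per3 and 0.15 for Cry1. Of the other Per3 probes, A_55_P2752088 was called at -0.55 (adjusted p = 0.00653) and A_66_P135046 was not, at -0.33 (adjusted p = 0.0581). On this diet 2 of 4 macrophage, 3 of 4 stellate cell and 1 of 4 neutrophil markers were higher in Pparα hep-/- mice, 1 of 4 hepatocyte and 1 of 3 T and B cell markers were lower, and their part in these differences was not tested.

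**Figure D2:**
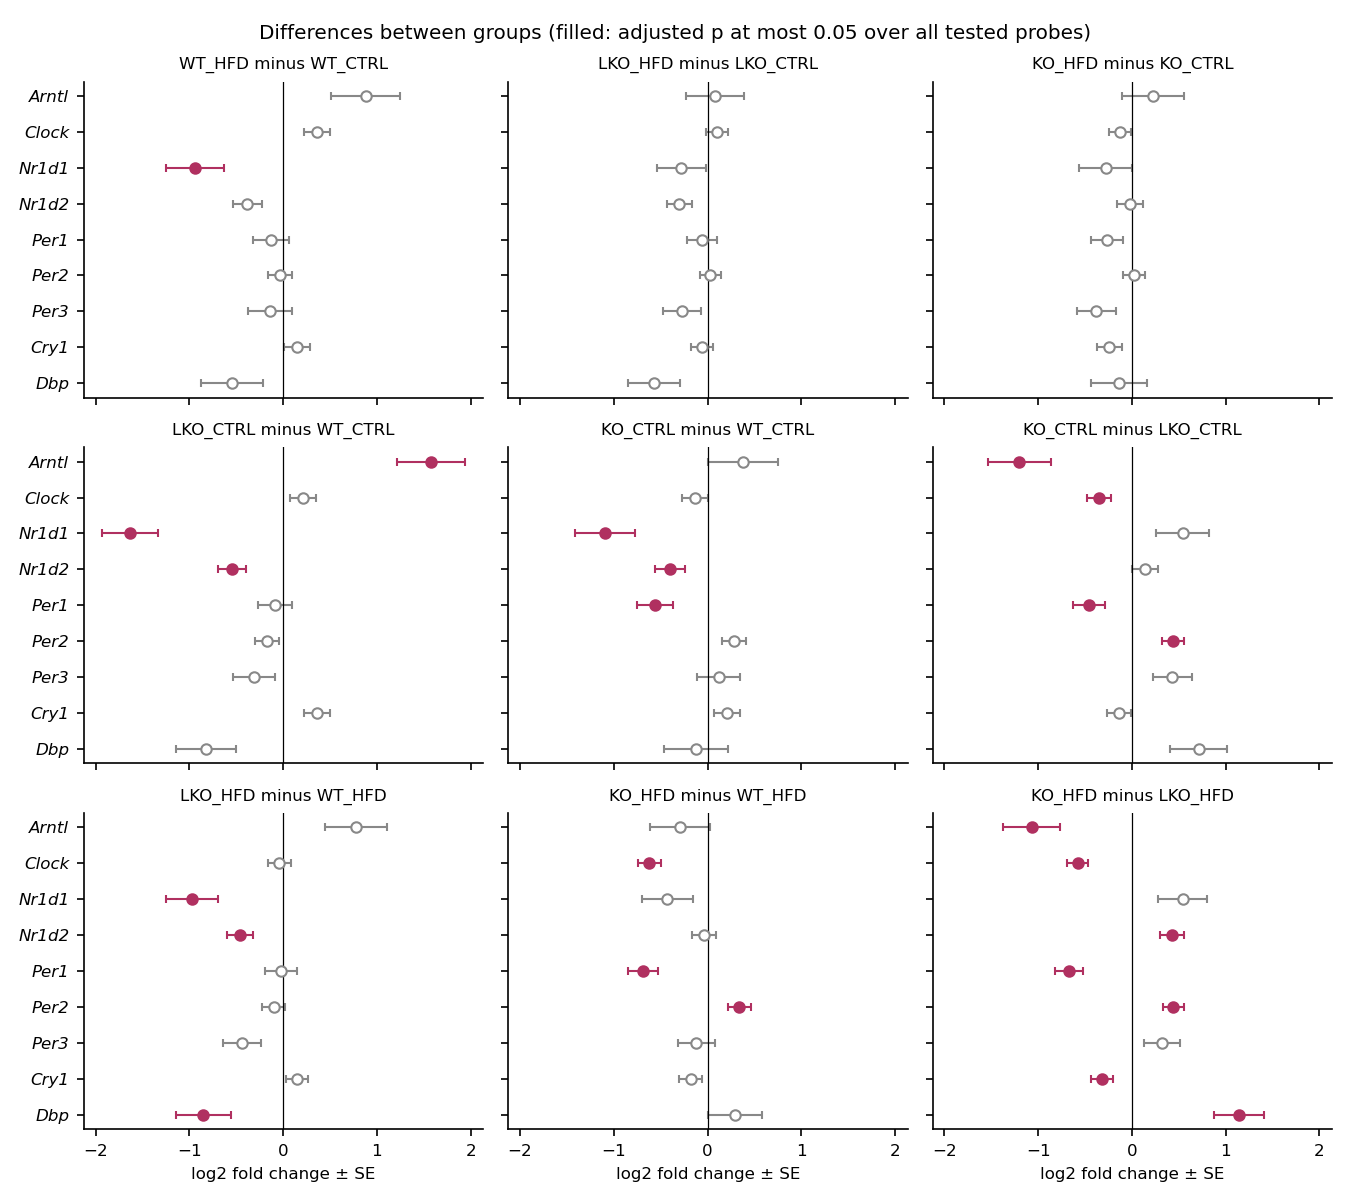
Log2 differences between groups (horizontal axis) for the main probe of each tested member, 1 panel per comparison, bars of ± SE and filled points for an adjusted p of at most 0.05. Nr1d1 lies below 0 in all 4 comparisons of a mutant with WT mice, from -1.63 to -0.43, and Per1 below 0 in all 4 comparisons of Pparα-/- (KO) with another genotype, from -0.69 to -0.46.

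Deletion of Pparα in the whole body was compared with WT in the same way. On CTRL, Nr1d1, Nr1d2 and Per1 were lower in Pparα-/- than in WT mice, which made 3 of 9 members against 34.2% of all probes. Nr1d1 fell by 1.09 ± 0.32 (2.13-fold, adjusted p = 0.00601), Nr1d2 by 0.40 ± 0.16 (1.32-fold, adjusted p = 0.0425) and Per1 by 0.56 ± 0.19 (1.47-fold, adjusted p = 0.0206). Nr1d1 differed by -1.96 within wash batch 1 but by -0.24 within wash batch 2, Nr1d2 by -0.71 and -0.10, and Per1 by -0.80 and -0.28, so most of each difference came from 1 wash batch, and 0 of 9 members were called within the second alone. Nr1d1 kept its call whichever mouse was left out. Nr1d2 lost it without any 1 of WT CTRL replicates 1 to 5 or Pparα-/- CTRL replicates 3, 4, 6 or 7 (adjusted p up to 0.129, differences between -0.46 and -0.32), and also with a replicate block, without the filter on dim probes and with normexp background correction. Its other probes were also called lower, A_52_P303891 at -0.60 (adjusted p = 0.00203) and A_55_P2148534 at -1.96 (adjusted p = 3.96e-14). Per1 lost it without WT CTRL replicates 2, 3 or 5 or Pparα-/- CTRL replicate 1 (adjusted p up to 0.062). The other differences were 0.38 for Arntl, -0.13 for Clock, 0.28 for Per2, 0.12 for Per3, 0.21 for Cry1 and -0.12 for Dbp. Without replicate 3 of the Pparα-/- mice, 3 members were again called, with Per2 (0.35, adjusted p = 0.0166) in the place of Nr1d2 (-0.34, adjusted p = 0.071). In this comparison 1 of 4 macrophage, 1 of 4 stellate cell and 1 of 3 T and B cell markers were higher and 1 of 4 hepatocyte markers was lower, and their part in these differences was not tested.

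On HFD, Clock and Per1 were lower and Per2 was higher in the Pparα-/- mice, relative to WT, 3 of 9 members in a comparison that called 45.7% of all probes. Clock fell by 0.62 ± 0.12 (1.53-fold, adjusted p = 4.93e-05) and Per1 by 0.69 ± 0.16 (1.61-fold, adjusted p = 0.000592), with 8 of 8 mice below the WT mean for both. Per2 rose by 0.34 ± 0.12 (1.26-fold, adjusted p = 0.0152), with 6 of 8 mice above the WT mean. Per1 was the 1 member of 9 whose groups did not overlap, against 6.93% of all probes in this comparison. Within wash batches 1 and 2, Clock differed by -0.51 and -0.76, Per1 by -1.06 and -0.43, and Per2 by 0.02 and 0.56, so that Per2 differed within the second batch and hardly within the first. Of the other Clock probes, A_52_P334670 was called at -0.38 (adjusted p = 0.0108) and A_52_P279391 was not, at -0.17 (adjusted p = 0.166), so the size of the Clock difference depends on the probe. Per2 lost its call without WT HFD replicates 5 or 8 or Pparα-/- HFD replicate 7 (adjusted p up to 0.0596), without array weights, with processed signals and with the mean of its probes, and its other probe, A_52_P536869, differed by -0.14 and was not called. Here the genes that were called in Pparα hep-/- mice, Nr1d1 (-0.43), Nr1d2 (-0.04) and Dbp (0.29), were not called by their main probes, while the Nr1d2 probe A_55_P2148534 was, at -1.81 (adjusted p = 2.45e-15). Arntl differed by -0.29, Per3 by -0.12 and Cry1 by -0.18, while the second Cry1 probe, A_52_P420500, was called at 0.31 (adjusted p = 0.038). That Cry1 probe was well above background on 3 of the 8 WT HFD arrays, so the size of its difference is uncertain. In this comparison 3 of 4 macrophage, 3 of 4 neutrophil and 4 of 4 stellate cell markers were higher in Pparα-/- mice, with medians of 1.18, 1.76 and 0.87, and 1 of 4 hepatocyte and 1 of 2 white adipocyte markers were lower. The mean macrophage level ran from 9.99 to 12.33 in WT HFD mice and from 11.20 to 12.23 in Pparα-/- HFD mice. The part of these cells in the clock gene differences was not tested.

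Comparing the mutants with each other sets loss of Pparα in the whole body against its loss in hepatocytes. The lines also differ in the floxed alleles and the albumin-Cre transgene, which cannot be told apart from loss of Pparα outside hepatocytes. On CTRL, Arntl, Clock and Per1 were lower and Per2 was higher in Pparα-/- than in Pparα hep-/- mice, 4 of 9 members against 25.2% of all probes. Arntl fell by 1.20 ± 0.34 (2.3-fold, adjusted p = 0.00596), with 7 of 8 mice below the Pparα hep-/- mean and replicate 3 the exception. Clock fell by 0.35 ± 0.13 (1.27-fold, adjusted p = 0.0373), Per1 fell by 0.46 ± 0.17 (1.38-fold, adjusted p = 0.0423) and Per2 rose by 0.44 ± 0.12 (1.36-fold, adjusted p = 0.00456). Without array weights Per1 alone was called. Other probes were not called at -0.50 for Arntl (A_66_P127371), -0.16 for Clock (A_52_P279391) and 0.13 for Per2 (A_52_P536869), while A_55_P2735445 of Arntl (-0.62) and A_52_P334670 of Clock (-0.49) were. These Arntl probes, A_66_P127371 and A_55_P2735445, were well above background on 1 and 3 of the 8 Pparα-/- CTRL arrays. The size of their differences is therefore uncertain. Within wash batches 1 and 2 the differences of the main probes were -0.95 and -1.32 for Arntl, -0.18 and -0.43 for Clock, -0.83 and -0.33 for Per1, and 0.44 and 0.44 for Per2. The calls of Arntl and Per2 held in every omission. Clock lost its call in 8 of the 48 omissions (Pparα-/- CTRL replicates 1, 2, 5 or 6 and Pparα hep-/- CTRL replicates 3, 4, 5 or 6; adjusted p up to 0.115). Per1 lost it in 9 (Pparα-/- CTRL replicates 1 to 4 and Pparα hep-/- CTRL replicates 2, 3, 4, 5 or 7; adjusted p up to 0.134). Clock was also lost without the wash batch term, with a replicate block and without the filter on dim probes, and Per1 without the wash batch term, with the slide as a block, with normexp background correction and on the authors' deposited log2 values. Dbp differed by 0.71 ± 0.30 (adjusted p = 0.0842), Nr1d1 by 0.54, Nr1d2 by 0.14, Per3 by 0.43 and Cry1 by -0.14. Without replicate 3 of the Pparα-/- mice 5 members were called, with Dbp (0.88, adjusted p = 0.0113) and Per3 (0.54, adjusted p = 0.0361) added and Per1 (-0.40, adjusted p = 0.0753) lost. In this comparison 1 of 4 neutrophil and 1 of 3 T and B cell markers were higher in Pparα-/- mice and 1 of 4 hepatocyte and 1 of 4 stellate cell markers were lower, and their part in these differences was not tested.

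On HFD 7 of 9 members were called, against 30.6% of all probes. The count fell to 2, Clock and Per1, without array weights, and to 1 within wash batch 1 alone. Dbp, Per2 and Nr1d2 were higher, and Arntl, Clock, Per1 and Cry1 were lower, in Pparα-/- than in Pparα hep-/- mice, by their main probes. For Nr1d2 the probe A_55_P2148534 was called the other way, at -1.25 (adjusted p = 3.91e-11). Dbp rose by 1.14 ± 0.27 (2.2-fold, adjusted p = 0.00109), Per2 by 0.44 ± 0.11 (1.36-fold, adjusted p = 0.00144) and Nr1d2 by 0.43 ± 0.13 (1.34-fold, adjusted p = 0.00786). Arntl fell by 1.07 ± 0.30 (2.1-fold, adjusted p = 0.00544) and Clock by 0.58 ± 0.11 (1.49-fold, adjusted p = 8.45e-05). Both genes of the activating pair were thus lower, together with 2 of the repressors. Per1 fell by 0.67 ± 0.15 (1.59-fold, adjusted p = 0.000661) and Cry1 by 0.32 ± 0.12 (1.25-fold, adjusted p = 0.0296). The differences within wash batches 1 and 2 were 0.70 and 1.47 for Dbp, 0.15 and 0.65 for Per2, 0.21 and 0.58 for Nr1d2, -0.53 and -1.54 for Arntl, -0.46 and -0.68 for Clock, -0.90 and -0.52 for Per1, and -0.23 and -0.38 for Cry1. The calls of Clock, Per1, Per2 and Dbp held in every omission. Without Pparα hep-/- HFD replicate 6, Arntl (-0.83, adjusted p = 0.0617), Nr1d2 (0.29, adjusted p = 0.119) and Cry1 (-0.20, adjusted p = 0.259) were not called. Cry1 was lost in 5 further omissions, those of Pparα hep-/- HFD replicates 3 or 7 and Pparα-/- HFD replicates 1, 3 or 6, and its second probe differed by 0.05. It was called under 6 of 12 other processing settings (limma adjusted p up to 0.439). The Clock probe A_52_P279391 (-0.19, adjusted p = 0.141) and the second Per2 probe (A_52_P536869, 0.10) were not called either, while the Clock probe A_52_P334670 was, at -0.41 (adjusted p = 0.00531). Nr1d1 (0.54) and Per3 (0.32) were not called by their main probes, and of the other Per3 probes A_55_P2752088 was, at 0.62 (adjusted p = 0.000604), and A_66_P135046 was not, at 0.22 (adjusted p = 0.175). In this comparison 2 of 4 neutrophil, 1 of 4 macrophage, 1 of 4 stellate cell and 1 of 3 T and B cell markers were higher in Pparα-/- mice, with list medians of 0.80, 0.42, -0.03 and 0.19, and their part in the clock gene differences was not tested. Over all 12 comparisons, which share groups and so are not independent, 24 of 108 values of members were called (22.2%), against 23.3% of the values of all probes.

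Nr1d2 was the member whose probes disagreed most. Its main probe, A_55_P2911007 (chr14:19036859-19036918, minus strand, build mm9), and A_52_P303891 (chr14:19037253-19037312) follow the transcript NM_011584. The probe A_55_P2148534 lies beside them at chr14:19036568-19036627 and is assigned to the transcript BC096461. On that probe the WT mice lay from 10.67 to 11.36 on CTRL and from 10.17 to 10.83 on HFD, and the Pparα hep-/- mice from 10.03 to 10.78 and from 9.78 to 10.62. The Pparα-/- mice lay from 8.10 to 9.57 and from 8.06 to 9.26, below every mouse of the other genotypes on the same diet. The difference from WT was -1.96 ± 0.16 on CTRL (adjusted p = 3.96e-14) and -1.81 ± 0.13 on HFD (adjusted p = 2.45e-15), where the main probe gave -0.40 and -0.04. Against Pparα hep-/- mice it was -1.28 on CTRL and -1.25 on HFD, where the main probe gave 0.14 and 0.43. A_52_P303891 gave -0.60 and -0.26 against WT, and 0.00 and 0.23 against Pparα hep-/- mice. In Pparα hep-/- against WT mice all 3 probes were called lower on both diets, between -0.46 and -0.68. The direction of Nr1d2 in Pparα-/- against Pparα hep-/- mice therefore depends on the probe.

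**Figure D3:**
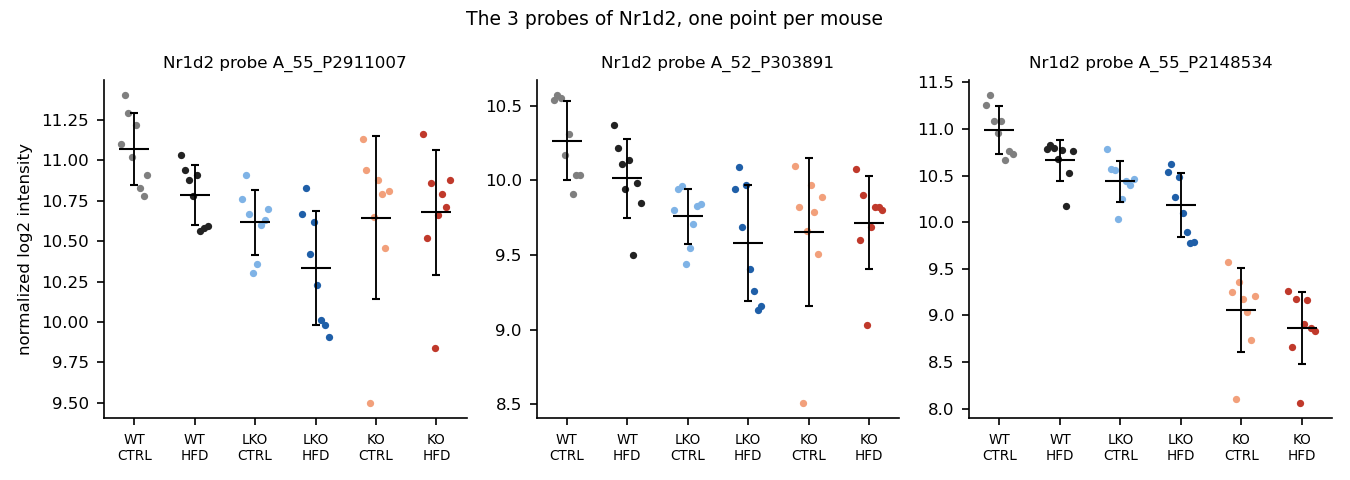
Normalized log2 signal (vertical axis) of the 3 Nr1d2 probes in the 6 groups, with 1 point per mouse and the group mean ± SD. On A_55_P2148534 the Pparα-/- mice (KO), at 8.06 to 9.57, lie below all mice of the other genotypes, and on the other 2 probes the groups overlap.

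Within a group, mice differed along an axis with Arntl at one end and Dbp at the other. The question was whether clock genes vary together, in opposite or in like directions, among mice of 1 genotype and diet. A set of 3 pairs was correlated across the 8 mice of each group, which gave 18 relations, tested by two-sided exact permutation with Benjamini-Hochberg adjustment over the 18. Arntl and Dbp were negatively correlated in every group, with Pearson's r of -0.70 in WT CTRL, -0.90 in WT HFD, -0.91 in Pparα hep-/- CTRL, -0.97 in Pparα hep-/- HFD, -1.0 in Pparα-/- CTRL and -0.97 in Pparα-/- HFD mice. Spearman's rho for the same groups was -0.83, -0.95, -0.88, -0.93, -1.0 and -1.0. The exact permutation test gave an adjusted p of 0.0756 for r in WT CTRL mice and between 0.000223 and 0.00432 in the other 5 groups, and of 0.0346 or less for rho in all 6. Without the 2 mice farthest from the median of Arntl, r was -0.74, -0.92, -0.82, -0.95, -0.98 and -0.83 in the same order, so the relation did not rest on replicate 3 of the Pparα-/- CTRL mice. With deviations from the wash batch means, r was -0.69, -0.93, -0.89, -0.97, -1.0 and -0.96. With processed signals r was -0.44 in WT CTRL mice (exact permutation, adjusted p = 0.31) and between -0.97 and -0.87 in the other 5 groups, and rho no longer passed in the 3 CTRL groups.

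**Figure D4:**
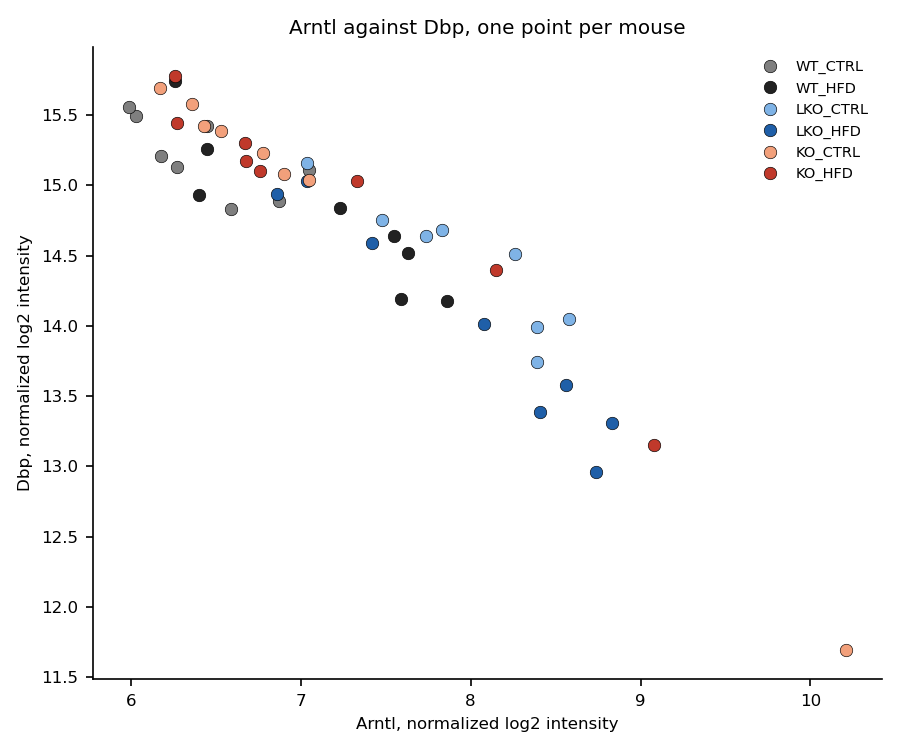
Log2 signal of Dbp (vertical axis) against that of Arntl (horizontal axis), with 1 point per mouse and 1 colour per group of 8 mice (LKO, Pparα hep-/-; KO, Pparα-/-). Mice with more Arntl have less Dbp in each colour (r from -1.0 to -0.70), with replicate 3 of the Pparα-/- CTRL mice at 10.21 and 11.69.

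Arntl and its repressor gene Nr1d1 gave r of -0.56, -0.77, -0.16, -0.91, -0.80 and -0.74 in the same order of groups, with rho of -0.74, -0.67, -0.02, -0.67, -0.93 and -0.62. By exact permutation, r passed in WT HFD (adjusted p = 0.0478), Pparα hep-/- HFD (0.0142) and Pparα-/- CTRL mice (0.00432), and not in Pparα-/- HFD (0.0551), WT CTRL (0.164) or Pparα hep-/- CTRL mice (0.7), while the adjusted p of rho was below the threshold in Pparα-/- CTRL mice alone (0.00804). Without the 2 farthest mice, r was -0.74, -0.62, 0.15, -0.80, -0.81 and -0.47. With deviations from the wash batch means it was -0.56, -0.76, -0.16, -0.91, -0.76 and -0.73, and rho then passed by exact permutation in no group (adjusted p = 0.0551 in Pparα-/- CTRL mice). Dbp and Per3, which has a pair of D-box matches in the window shown above, gave r of 0.78, 0.59, 0.39, 0.78, 0.97 and 0.75, with rho of 0.83, 0.64, 0.43, 0.79, 0.74 and 0.71. The exact permutation p of r, adjusted, was 0.0434, 0.149, 0.363, 0.0383, 0.0142 and 0.0478, and that of rho was under the threshold in WT CTRL mice alone (0.0346). With deviations from the wash batch means, rho of Dbp and Per3 passed by exact permutation in Pparα-/- CTRL (0.90, adjusted p = 0.0137) and Pparα-/- HFD mice (0.88, adjusted p = 0.0186) and not in WT CTRL mice (0.79, adjusted p = 0.0551). Without the 2 farthest mice, r was 0.95, 0.40, -0.35, 0.61, 0.66 and 0.77, so that in Pparα hep-/- CTRL mice its sign rested on those 2. With these deviations r was 0.83, 0.58, 0.42, 0.78, 0.96 and 0.86. Whether one group's correlation differed from another's was not tested.

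Over all 48 mice, after group and wash batch means were removed, the 36 pairs of members were described by r, without a test, since mice of a group share slides and wash batches. Arntl and Clock moved together (r = 0.86), as did Nr1d1 and Nr1d2 (0.84), Dbp and Nr1d2 (0.88) and Dbp and Per3 (0.82). Arntl ran against Dbp (-0.96), Nr1d2 (-0.86), Per2 (-0.77), Per3 (-0.74) and Nr1d1 (-0.65). Cry1 went with Arntl (0.62) rather than with the Per genes (0.01 with Per1, -0.23 with Per2, -0.45 with Per3). Per1 was the member least tied to the rest, with r of -0.29 with Arntl and 0.29 with Dbp. Without replicate 3 of the Pparα-/- CTRL mice, an omission chosen after the data were seen, Arntl and Dbp kept r = -0.93 and Arntl and Clock 0.80, whereas Per1 fell to -0.04 with Arntl and -0.01 with Dbp.

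**Figure D5:**
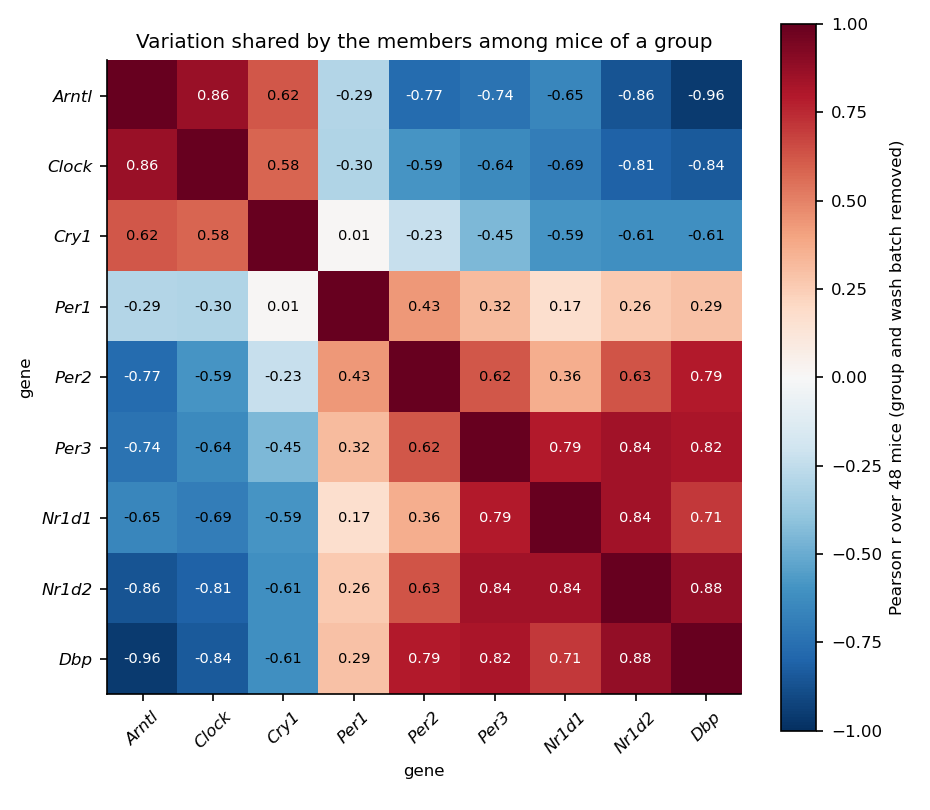
Pearson's r between the main probes of the 9 tested members over 48 mice, after removal of group and wash batch means, as a grid with members on both axes and r as colour and number. Arntl, Clock and Cry1 are positively correlated (0.58 to 0.86) and run against Nr1d1, Nr1d2, Per3 and Dbp, while Per1 has r between -0.30 and 0.43 with every other member.

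Among the 33131 probes compared in the same way, and leaving out loci without a gene name, the genes most like Arntl were Clpx (r = 0.95), Lgalsl (0.90), Pnkd (0.89), Leo1 (0.88) and Insig2 (0.88). Clpx encodes a subunit of a mitochondrial protease, and Insig2 a regulator of sterol synthesis in the endoplasmic reticulum. The genes most opposed to Arntl were Dbp (-0.96), Nr1d2 (-0.86), Tef (-0.82), Nudt3 (-0.81) and Coq10b (-0.80). Those most like Dbp were Nr1d2 (0.88), Tef (0.88), Per3 (0.82), Coq10b (0.81) and Wee1 (0.80), and those most opposed to it were Arntl (-0.96), Clpx (-0.94), Lgalsl (-0.90), Leo1 (-0.90) and Pnkd (-0.89). Tef encodes a transcription factor of the same family as Dbp, and Wee1 a cell cycle kinase. Of these 20 entries, 15 were also among the 20 found without replicate 3 of the Pparα-/- CTRL mice. Those lost were Leo1, Nudt3 and Coq10b for Arntl, and Coq10b and Wee1 for Dbp.

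The other genes of the clock were taken as 2 lists, 15 regulators and 14 liver outputs, of which 13 and 14 were tested. On CTRL, Pparα hep-/- against WT mice had 1 regulator called higher and 1 lower, and 1 output higher and 4 lower, against 24.7% of all probes. The regulators were Csnk1e (0.67), a kinase of the Per proteins, and the repressor gene Ciart (-1.0, adjusted p = 0.0169). The outputs included Cyp2a5 (0.73), a cytochrome P450, Gys2 (-0.79), the glycogen synthase of liver, and Wee1 (-0.50). On HFD the same comparison called 3 regulators higher and 2 lower, with Csnk1e at 0.72 and Fbxw11 at 0.31, and 1 output higher and 4 lower, with Elovl3 at -1.01, Upp2 at -0.71 and Por at -0.66. Both lists together had 7 of 27 genes called on CTRL (25.9%, against 24.7% of all probes) and 10 of 27 on HFD (37.0%, against 26.7% of all probes).

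In Pparα-/- against WT mice, the regulators called were 4 higher and 0 lower on CTRL, with Csnk1e (0.65) and Btrc (0.54), which encodes part of a ubiquitin ligase of the Per proteins, and 4 higher and 1 lower on HFD, with Csnk1e (0.79), Timeless (0.68) and Arntl2 (-0.47). The outputs were 1 higher and 2 lower on CTRL, with Cyp2a5 (0.71), Nampt (-0.66) and Gys2 (-0.53), and 3 higher and 2 lower on HFD, with Cyp2a5 (0.65), Gys2 (-0.30) and Elovl3 (-3.24, adjusted p = 5.25e-10). Together these were 7 of 27 genes (25.9%) on CTRL and 10 of 27 (37.0%) on HFD, against 34.2% and 45.7% of all probes. Between the mutants, 2 regulators and 3 outputs were higher and none was lower in Pparα-/- mice on CTRL, among them Btrc (0.56), Tef (0.42) and Ccrn4l (0.36). On HFD, 2 regulators were higher (Btrc 0.48, Timeless 0.36) and none was lower, and 1 output was higher (Por 0.72) and 1 lower (Elovl3 -2.23). The genes called between the mutants were 5 of 27 on CTRL and 4 of 27 on HFD (18.5% and 14.8%), against 25.2% and 30.6% of all probes. The diet called 1 regulator higher (Arntl2 0.49), 1 lower (Rora -0.28) and 1 output higher (Elovl3 1.32) in WT mice. In Pparα hep-/- mice it called 1 regulator higher (Fbxw11 0.24) and 1 lower (Btrc -0.26), and 1 output higher (Ccrn4l 0.25) and 1 lower (Upp2 -0.73). In Pparα-/- mice it called 1 regulator lower (Btrc -0.33), 1 output higher (Nampt 0.58) and 2 lower (Elovl3 -1.90, Upp2 -0.67). The diet thus called 3, 4 and 4 of the 27 genes (11.1%, 14.8% and 14.8%), against 18.8%, 20.2% and 24.8% of all probes. Whether the shares of these 27 genes differ from those of all probes was not tested in any comparison. The median difference of the regulators lay between -0.07 and 0.11 and that of the outputs between -0.21 and 0.21 over the 12 comparisons, and the median over all probes between -0.03 and 0.01. For Elovl3, a fatty acid elongase, the response to the diet itself differed from WT in both mutants.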

How the data were processed

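Liver RNA of 48 mice was hybridised to 1-colour Agilent arrays, 1 array per mouse. Per the file headers and labels, the deposited intensity values came from Agilent Feature Extraction 10.10.1.1 and were median pixel intensities, neither background subtracted nor normalized. The log2 values deposited by the authors, already filtered and normalized by quantiles with a correction for the bath, served as an alternative. Here, intensities were log2 transformed, outlier spots were left out, spots of a probe were averaged, a probe was kept if well above background in 4 or more of the 8 arrays of any group, and the kept values were quantile normalized. limma 3.58.1 (with R 4.3.3 and version 1.17.8 of data.table) fitted 1 mean per group, the wash batch and array weights, with Benjamini-Hochberg adjustment within each of 12 contrasts and calls at an adjusted p of at most 0.05. The script was tested on simulated data.

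The 10 members are named in every comparison by their main probe, and of the other clock genes up to 3 per direction and contrast, those called with the largest difference. A regulator of the list fixed for those genes is not reported here and is left out of its counts. Members, gene lists and tests were chosen with earlier results of these data known. The number of arrays limits the precision, and p-values measure the spread between mice. No pair of arrays held identical values.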

Additional observations from a re-analysis of the deposited data

Results flagged for a closer look

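Within groups of 8 mice, the highest or lowest mouse was far from the others by Dixon's criterion in 7 of the 54 sets of a member and a group, and chance gives about 1 in 20. Replicate 3 of the Pparα-/- CTRL mice accounted for 5 of them, with Arntl at 10.21, Dbp at 11.69, Per2 at 10.25, Per3 at 7.96 and Nr1d2 at 9.50. The others were Per1 at 11.46 in replicate 7 of the WT CTRL mice and Cry1 at 7.87 in replicate 6 of the WT HFD mice.

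The response to HFD differed from that of WT mice for 5 of the 27 other clock genes tested, by the interaction term of limma. It did so for 2 of 27 in Pparα-/- mice, against 14.3% of all probes, and for 4 of 27 in Pparα hep-/- mice, against 10.4%. In Pparα-/- mice the difference was -3.22 ± 0.56 for Elovl3 (adjusted p = 0.000144) and 0.73 ± 0.17 for Nampt (adjusted p = 0.00314). In Pparα hep-/- mice it was -1.94 ± 0.55 for Elovl3 (adjusted p = 0.0181), 0.55 ± 0.16 for Gys2 (adjusted p = 0.0249), 0.42 ± 0.14 for Ccrn4l (adjusted p = 0.0441) and 0.33 ± 0.09 for Fbxw11 (adjusted p = 0.0124). Unlike those of the members, these calls were not repeated under the other settings. For Pparα hep-/- against WT mice, the calls over all probes fell from 3472 to 298 without array weights. Within wash batch 2 alone they fell to 166.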

How the results depend on the processing

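Of 108 values of members, 24 were called (22.2%, against 23.3% of the values of all probes). Without array weights 11 were called, within wash batch 1 alone 8 and within wash batch 2 alone 15, both with fewer mice, and under the other settings 19 to 27. Leaving out 1 mouse gave 20 (without Pparα hep-/- HFD replicate 6) to 29 (without WT CTRL replicate 7). Per comparison, leaving out 1 mouse gave 0 to 3 members for the diet in WT, 0 to 1 in Pparα hep-/- and 0 to 0 in Pparα-/- mice. On CTRL it gave 3 to 5 for Pparα hep-/- against WT, 1 to 3 for Pparα-/- against WT and 2 to 5 between the mutants, and on HFD 0 to 4, 2 to 3 and 4 to 8. For the differences in response it gave 0 to 0, 0 to 1 and 0 to 0.

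The 24 called values kept their sign under every setting but 1. With the mean of all probes of a gene, Nr1d2 in Pparα-/- against Pparα hep-/- mice turned to -0.20 on HFD, and to -0.37 on CTRL, where its main probe was not called, since its probes disagree. Without array weights, 0 members were called for the diet in WT mice, 1 between the mutants on CTRL, 0 for Pparα hep-/- against WT on HFD and 2 between the mutants on HFD. Without the wash batch term the diet in WT called 0 and the mutants on CTRL differed in 2. The diet in WT called 3 with the slide as a block, 0 without the filter on dim probes, 2 with processed signals and 2 with the mean of probes. Under a stricter filter Pparα hep-/- against WT on CTRL called 5. Wash batch 1 alone called 1 for Pparα hep-/- against WT on CTRL, 1 between the mutants on CTRL, and 0, 1 and 1 in the 3 HFD comparisons. Wash batch 2 alone called 0 for the diet in WT, 1 for the diet in Pparα-/- (Per3), 1 for Pparα hep-/- against WT on CTRL and 0 for Pparα-/- against WT on CTRL. The cause of the other changes was not tested.

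With deviations from the wash batch means, Arntl and Nr1d1 in WT HFD mice (-0.76, exact permutation, adjusted p = 0.0553) and Dbp and Per3 in Pparα hep-/- HFD mice (0.78, exact permutation, adjusted p = 0.0513) no longer passed. With processed signals, Arntl and Nr1d1 in WT HFD mice (-0.77, exact permutation, adjusted p = 0.0513) and Dbp and Per3 in WT CTRL mice (0.70, exact permutation, adjusted p = 0.0777) did not. The rho of Arntl and Nr1d1 in Pparα-/- CTRL mice and of Dbp and Per3 in WT CTRL mice no longer passed with deviations from the wash batch means, by exact permutation (adjusted p = 0.0551 for both). With processed signals, the rho of Arntl and Dbp no longer passed in WT CTRL (-0.60, exact permutation, adjusted p = 0.159), Pparα hep-/- CTRL (-0.81, adjusted p = 0.056) and Pparα-/- CTRL mice (-0.74, adjusted p = 0.0917), nor that of Dbp and Per3 in WT CTRL mice (0.81, adjusted p = 0.056). Processed signals moved the share of higher among called probes from 46.8% to 34.6% for the diet in Pparα hep-/- mice and from 47.6% to 38.0% for Pparα-/- against WT mice on HFD.

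Replicate numbers are shared between groups without a stated pairing. Over 120 pairs of same-numbered arrays the correlation of deviations ran from -0.46 to 0.69 (median 0.02), and 12 of 48 arrays correlated best with their own number. With a replicate block, 22 of 108 values were called, and the diet in WT mice called 0 members.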
